A study of Mus musculus with 6 samples.

Results

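Clade B serpins are the intracellular branch of the serpin family of protease inhibitors. The 8 members described here were fixed by name as Serpinb1a, Serpinb1b, Serpinb2, Serpinb6a, Serpinb6b, Serpinb8, Serpinb9 and Serpinb10, and were read from the probe sets (groups of array probes for 1 transcript) whose platform annotation named that symbol and no other. Each of the 8 had 1 such probe set, among 19938 genes measured in all. A further 16 clade B genes on the array are given for comparison. The genes were selected on the log2 differences between the arrays labelled shHLX and shControl, such as that of Serpinb10, so these differences are descriptions and support nothing on their own.

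The 6 arrays came from mouse URE cells, a leukaemia line. In the literature this name belongs to a myeloid line from mice with reduced PU.1, a myeloid transcription factor, which the labels do not state and which would be shared by both groups. A first set of 3 arrays, labelled shHLX, came from cells that carried a lentiviral hairpin against the homeobox gene Hlx, and 3 arrays labelled shControl came from cells with a hairpin against luciferase. All cells had been cultured with WEHI and BHK supernatants, had taken up the same vector with its green fluorescent marker and were sorted as GFP+, and 10 ng of RNA per sample was amplified. All samples are 1 cell line with 1 hairpin per target, no age or genotype is given in the labels, and a lower signal in such bulk samples cannot tell fewer expressing cells from less RNA per cell. The study asked what part Hlx plays in blood cell differentiation and leukaemia.

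A serpin presents an exposed loop as bait. The protease that cuts this loop is trapped in a covalent complex, and the inhibitor is used up with it. Clade B members lack a classical secretion signal, and most stay in the cytoplasm or nucleus, where in granulocytes and killer lymphocytes they are known for guarding the cell against granule proteases that leak out. Mouse has several copies of genes that are single in human, and the copies lie in a cluster on chromosome 1 and another on chromosome 13.

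Values are log2 signals, on which a difference of 1 is a doubling. The signal is on the array's own scale and no detection calls were used here, so a dim probe set may be at background, and levels are not compared between genes. Calls are from limma across all 19938 genes, at a Benjamini-Hochberg adjusted p under 0.05. The array medians were 7.02 to 7.10. Hlx mRNA had 10.08, 10.06 and 10.17 on the arrays labelled shHLX, against 10.21, 10.12 and 10.20 on the shControl arrays. The groups overlapped for Hlx and the difference of -0.07 was not called (limma adjusted p = 0.479), so the direction of each comparison rests on the array labels. Of 12 genes chosen as markers of a myeloid line, both immature and maturing, 4 were called, or 33.3% against 6.18% of all genes. Among the 12, 10 had a mean above the median signal of all genes. When only such genes were tested, 2064 of 9969 were called, so the share over all genes is a low comparator. The myeloperoxidase gene Mpo (-1.46), the receptor gene Kit (-0.73) and the transcription factor gene Cebpe (-0.73) fell, and the integrin gene Itgam (0.75) rose, all as log2 differences. Elane, the neutrophil elastase gene, was not called, with 13.95 ± 0.0148 on the arrays labelled shHLX and 14.00 ± 0.0303 on the shControl arrays (SD, n = 3 each).

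Serpinb10 was the member with the largest difference. It encodes a nuclear serpin that in human is known from bone marrow and myeloid leukaemia cells. The Serpinb10 probe set (10349166, Entrez gene 241197) read 6.17, 5.87 and 6.08 on the arrays labelled shHLX, against 7.62, 7.25 and 7.58 on the shControl arrays. The groups were far apart, with a gap of 1.08 between the highest array labelled shHLX and the lowest shControl array. The mean was 6.04 ± 0.152 on the arrays labelled shHLX and 7.49 ± 0.203 on the shControl arrays (SD, n = 3 each). Serpinb10 fell by 1.44 on the log2 scale (95% confidence interval -1.70 to -1.18), which is 36.8% of the control signal (30.7% to 44.1%). Its signal on the arrays labelled shHLX may lie at background, where a fall in RNA would be understated. Array 2 was the lowest of its group in both groups, and the spread of Serpinb10 within each group was larger than the 0.0728 of the median gene. Whichever array was left out, the difference stayed between -1.56 and -1.36 and was called.

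**Figure D1:**
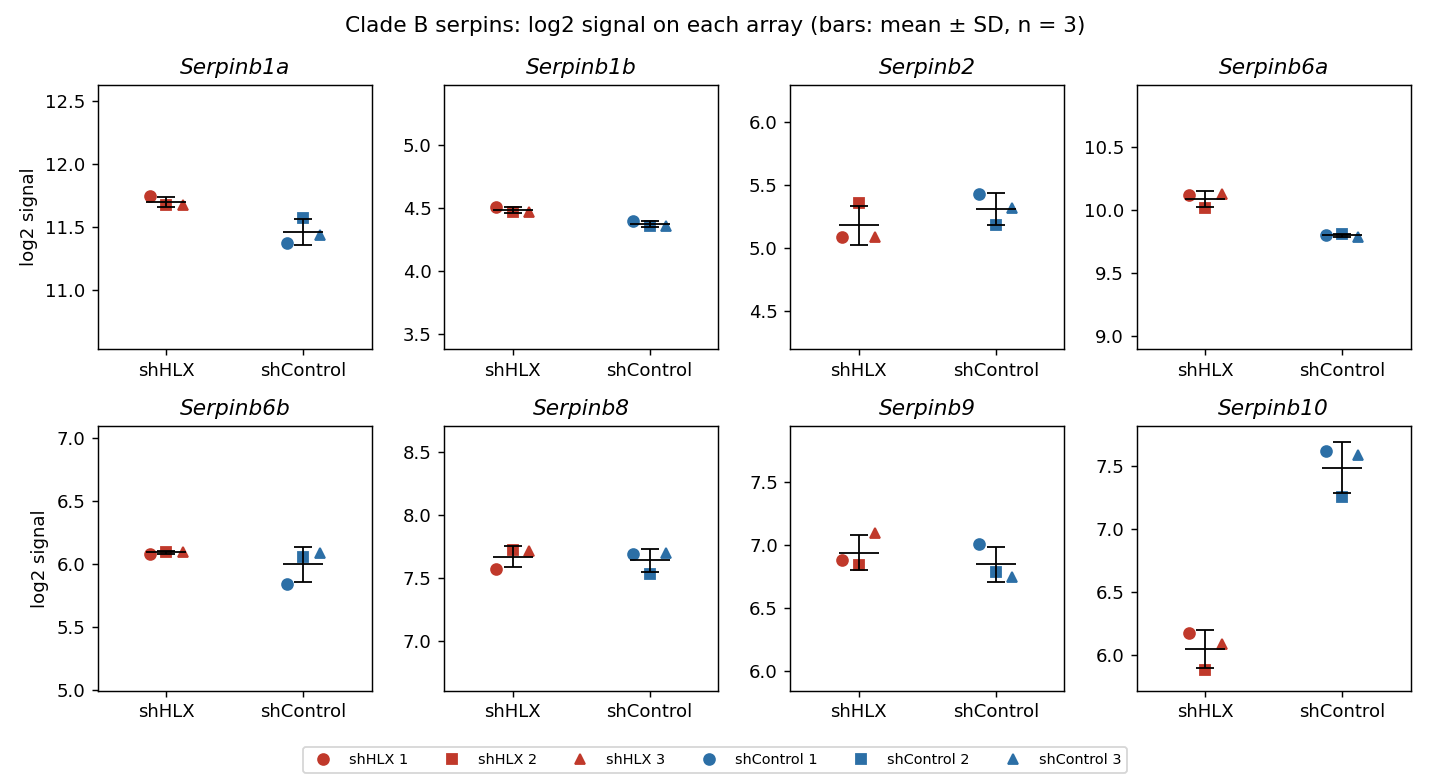
Log2 signal (vertical axis, every panel spanning the same range) of the 8 clade B serpins on the 3 arrays labelled shHLX and the 3 shControl arrays; symbols give the replicate number and bars the mean ± SD. The difference of the means is -1.44 for Serpinb10 and 0.29 for Serpinb6a, and the groups overlap for Serpinb2, Serpinb6b, Serpinb8 and Serpinb9.

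Serpinb10 lies between Serpinb2 and Serpinb8 on chromosome 1, and the 250 bases before the start site of each are shown because these adjacent genes differed in their readout. The sequences are from RefSeq (GRCm38.p6), 5′ to 3′ on the strand of the gene, with capitals on the motifs named below.
Serpinb10, chr1:107528753-107529002, plus strand: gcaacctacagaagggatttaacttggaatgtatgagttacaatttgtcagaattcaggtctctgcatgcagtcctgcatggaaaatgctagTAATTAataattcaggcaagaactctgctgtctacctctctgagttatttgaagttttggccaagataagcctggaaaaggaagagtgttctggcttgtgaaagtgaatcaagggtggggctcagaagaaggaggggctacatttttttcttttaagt
Serpinb2, chr1:107511173-107511422, plus strand, the upstream of its 2 listed starts: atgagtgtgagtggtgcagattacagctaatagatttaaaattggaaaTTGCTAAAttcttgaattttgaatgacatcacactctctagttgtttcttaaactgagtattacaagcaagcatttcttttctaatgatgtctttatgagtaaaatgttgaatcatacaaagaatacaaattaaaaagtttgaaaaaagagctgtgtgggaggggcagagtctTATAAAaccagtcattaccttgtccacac
Serpinb8, chr1:107589756-107590005, plus strand: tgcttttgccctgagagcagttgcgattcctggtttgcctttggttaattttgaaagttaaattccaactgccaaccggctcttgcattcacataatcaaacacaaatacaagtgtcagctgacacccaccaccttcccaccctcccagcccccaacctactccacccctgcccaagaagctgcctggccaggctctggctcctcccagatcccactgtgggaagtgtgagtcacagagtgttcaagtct

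Both strands of these windows were searched for 4 motifs. They were GAGGAA (a PU.1-type form of the ETS site), TTGCNNAA (C/EBP type), TAATTA (a pair of homeobox cores) and TATAAA (the TATA box). The shorter core GGAA, which ETS factors share, was not searched for. The Serpinb10 window held TAATTA, which begins 158 bases before the start, and none of the other motifs. TAATTA is found in 4.84% of the 32851 windows of this length in the table. The Serpinb2 window held TTGCTAAA, which begins 202 bases before the start, and TATAAA at 29 bases. TTGCNNAA occurred in 9.56% of all windows and TATAAA in 12.4%. The Serpinb8 window held none of the 4. Over the 9 windows listed for 7 of the 8 members, TAATTA occurred in the Serpinb10 window alone, and GAGGAA, present in 23.3% of all windows, occurred in those of Serpinb1b and Serpinb6b. Neither Serpinb6a window held any of the 4. Serpinb1a was not among the sequences used here. A match of letters describes the sequence and does not show that a factor binds there.

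Both neighbours of Serpinb10 differed little between the groups. Serpinb2 encodes the inhibitor of urokinase known from activated monocytes and macrophages. The Serpinb2 probe set gave 5.09, 5.36 and 5.09 on the arrays labelled shHLX, against 5.43, 5.18 and 5.32 on the shControl arrays, so the groups overlapped. The difference of -0.13 (95% confidence interval -0.34 to 0.08) was not called. Serpinb8, whose human protein inhibits the convertase furin, read 7.57, 7.72 and 7.71 on the arrays labelled shHLX, against 7.69, 7.53 and 7.69 on the shControl arrays. Its groups overlapped as well, and the difference was 0.03 (-0.12 to 0.18).

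Serpinb6a, whose protein inhibits cathepsin G, was the called member on the higher side. The Serpinb6a probe set (10408600, Entrez gene 20719) read 10.12, 10.02 and 10.13 on the arrays labelled shHLX, against 9.80, 9.81 and 9.79 on the shControl arrays. All arrays labelled shHLX lay above all shControl arrays, with a gap of 0.20. Serpinb6a averaged 10.09 ± 0.0621 on the arrays labelled shHLX and 9.80 ± 0.0121 on the shControl arrays (SD, n = 3 each), a 1.22-fold rise (95% confidence interval 1.13 to 1.31). The call was lost without shHLX 1 (limma adjusted p = 0.0544) or without shControl 3 (0.0601), in a range of 0.000204 to 0.0601 over 16 alternatives, while the difference stayed at 0.25 to 0.32. Serpinb6b, a close copy of Serpinb6a, had 6.08, 6.10 and 6.10 on the arrays labelled shHLX, against 5.84, 6.06 and 6.09 on the shControl arrays. The groups overlapped narrowly, with shControl 3 above shHLX 1, and the difference of 0.10 (-0.06 to 0.25) was not called.

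Serpinb1a encodes the leukocyte elastase inhibitor, which blocks neutrophil elastase, proteinase 3 and cathepsin G. The Serpinb1a probe set read 11.74, 11.67 and 11.67 on the arrays labelled shHLX, against 11.37, 11.57 and 11.43 on the shControl arrays. The arrays labelled shHLX were all above the shControl arrays, by 0.10 at the nearest. The difference of 0.24 (95% confidence interval 0.10 to 0.38) was not called (limma adjusted p = 0.0678, and 0.00216 to 0.22 over 16 alternatives). The shControl 2 array was the highest control, and without it the difference was 0.29 and was called (limma adjusted p = 0.0303). Serpinb1b, a mouse copy of the same gene, gave 4.51, 4.47 and 4.47 on the arrays labelled shHLX, against 4.40, 4.36 and 4.36 on the shControl arrays. These groups did not overlap either, and the difference was 0.11 (0.01 to 0.21), not called.

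Serpinb9 encodes the granzyme B inhibitor with which killer lymphocytes and dendritic cells protect themselves. The Serpinb9 probe set read 6.88, 6.84 and 7.10 on the arrays labelled shHLX, against 7.01, 6.79 and 6.75 on the shControl arrays. The groups overlapped, and the difference of 0.09 (-0.12 to 0.30) was not called. For Serpinb2, Serpinb6b, Serpinb8 and Serpinb9 the interval reached from a slight fall to a slight rise, so these arrays do not show that the genes were unaffected. With 1 array left out, the difference lay between -0.22 (without shHLX 2) and -0.07 (without shControl 1) for Serpinb2, between 0.02 (without shControl 1) and 0.14 (without shControl 3) for Serpinb6b, and between 0.01 (without shHLX 3) and 0.17 (without shControl 1) for Serpinb9.

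**Figure D2:**
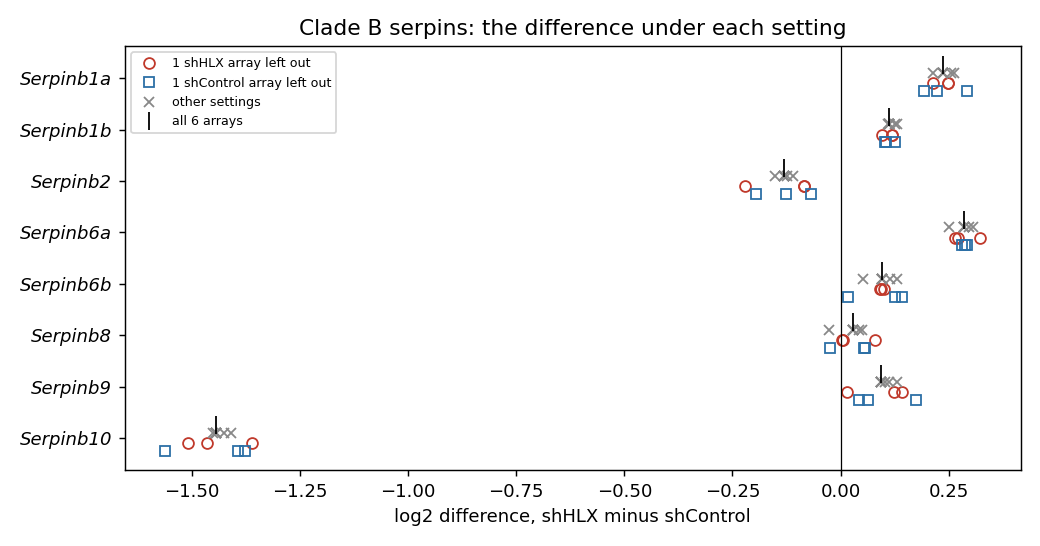
Log2 difference, shHLX minus shControl (horizontal axis), of each of the 8 members with all 6 arrays (bar), with 1 array left out (circles and squares) and under the other settings that keep every gene (crosses). Serpinb10 stays between -1.56 and -1.36, Serpinb6a between 0.25 and 0.32 and Serpinb1a between 0.19 and 0.29, while Serpinb8 lies on both sides of 0.

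As a group, 2 of the 8 members were called, 1 higher and 1 lower, where 6.18% of all genes were called (3.75% higher and 2.43% lower). No overlap between the groups was seen for 4 of the 8, where 26.2% of all genes had none. Serpinb1a, Serpinb1b and Serpinb6a lay above (14.7% of all genes) and Serpinb10 below (11.4%). The median difference was 0.09 over the 8 members and -0.01 over all genes. Since the comparison had been used to choose the genes, nothing is read from these counts. By signal, 5 of the 8 had a mean above the 25th percentile of all genes and 3 (Serpinb1a, Serpinb6a and Serpinb8) above the median.

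The other 16 measured clade B genes, of 20 looked for, showed no call. They include the epithelial serpin genes of the chromosome 1 cluster (Serpinb3a, Serpinb3c, Serpinb3d, Serpinb5, Serpinb7, Serpinb11, Serpinb12 and Serpinb13) and further mouse copies of Serpinb1, Serpinb6 and Serpinb9 on chromosome 13. With limma 0 of the 16 passed, 4 had an unadjusted p under 0.05, and 0 passed a test without variance moderation. Over all genes these shares were 6.18% for limma and 19.4% for an unadjusted p under 0.05, and neither count is read as a result. The 3 arrays labelled shHLX lay wholly above or below the controls for 4 of the 16, a share near the 26.2% of all genes. By signal, 1 of the 16 had a mean above the 25th percentile of all genes and 0 above the median. Most of the 16 may thus lie at background, where a change in RNA would be understated. The widest difference was that of Serpinb9b, a mouse copy of Serpinb9, with 5.90, 6.29 and 6.02 on the arrays labelled shHLX, against 6.36, 6.40 and 6.32 on the shControl arrays. Its difference of -0.29 (limma adjusted p = 0.136) reached a call only without shHLX 2, the array nearest to the controls (-0.40, limma adjusted p = 0.0136). Over its other alternatives the limma adjusted p went up to 0.301, and a test without variance moderation gave an adjusted p of 0.316. Serpinb3b, Serpinb9f, Serpinb9g and Serpinb9h had no probe set of their own. A further 3 probe sets named Serpinb9d, Serpinb9e, Serpinb9f and Serpinb9g together, and their differences were -0.04, 0.04 and -0.003. The copies are alike in sequence, and whether their probes also bind RNA of another copy was not tested.

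In and beside the clusters Serpinb10 and Serpinb6a were the called genes, a share near the 6.18% of all genes. Of 17 measured genes in and beside the chromosome 1 cluster, 11 of them clade B serpins, Serpinb10 was the called one. The flanking genes gave differences of -0.13 for Bcl2, which encodes an inhibitor of apoptosis, 0.003 for Kdsr, 0.11 for Vps4b, 0.09 for the cadherin genes Cdh7 and Cdh19, and -0.04 for Dsel. Of 19 measured genes in and beside the chromosome 13 cluster, 13 of them clade B serpins, Serpinb6a, the last serpin of the row, was the called one. The flanking genes differed by 0.17 for Gmds, -0.03 for Mylk4, 0.07 for Wrnip1, 0.07 for the quinone reductase gene Nqo2, 0.05 for Bphl and 0.09 for the tubulin gene Tubb2a, none of them called.

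**Figure D3:**
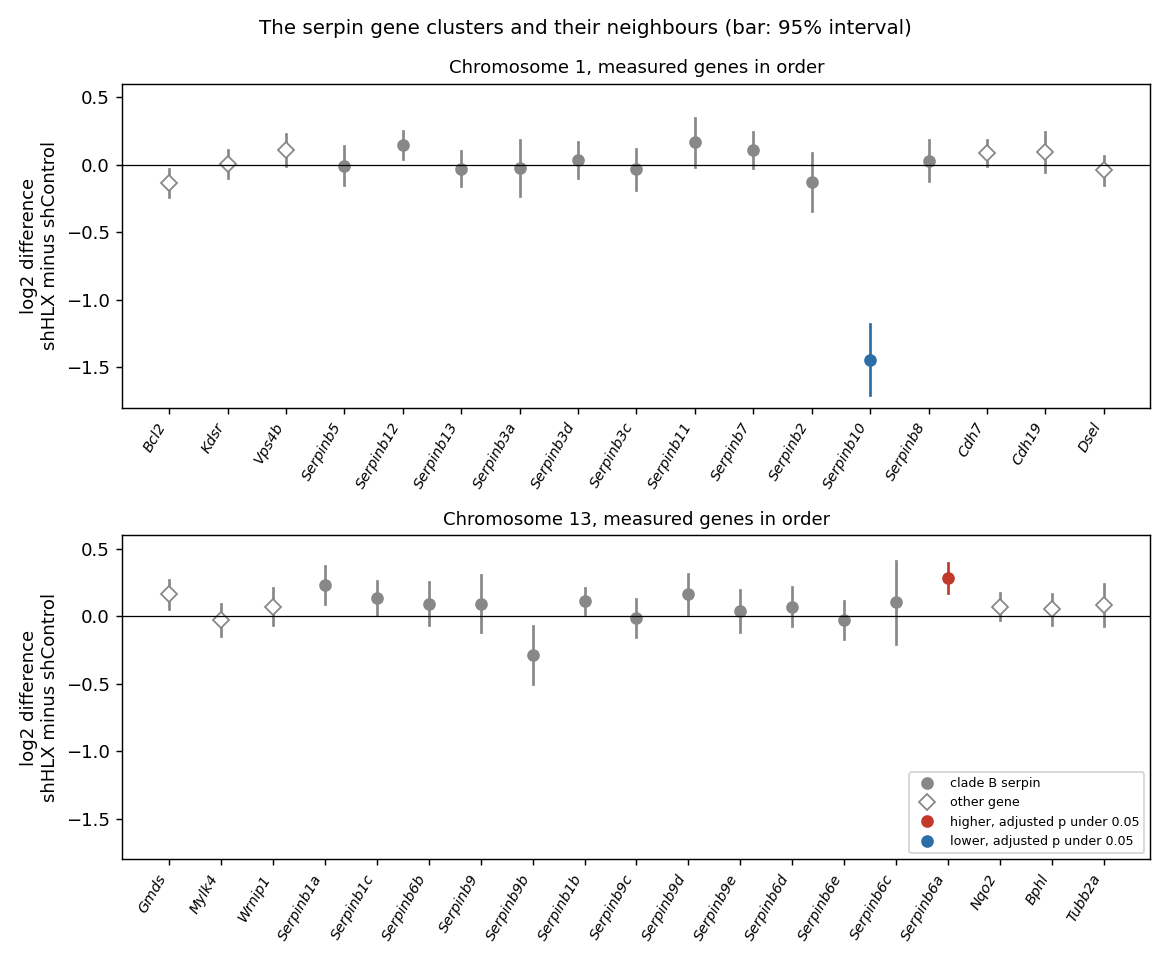
Log2 difference, shHLX minus shControl (vertical axis), with its 95% confidence interval for the measured genes in their order along the chromosome 1 and chromosome 13 clusters and 3 measured genes on each side. Filled circles are clade B serpins and open diamonds other genes. Serpinb10 stands at -1.44 between Serpinb2 and Serpinb8, and Serpinb6a, at 0.29, is the called gene on chromosome 13.

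The serpins of other clades are mostly secreted into blood or matrix. Of 36 looked for, 23 had a probe set of their own, and 1 of them, or 4.35% against 6.18% of all genes, was called. Serpinf1, which encodes pigment epithelium-derived factor, averaged 11.70 ± 0.0598 on the arrays labelled shHLX and 11.94 ± 0.0101 on the shControl arrays (SD, n = 3 each). Serpinf1 fell by 0.24 on the log2 scale (limma adjusted p = 0.022), and the call ended on leaving out whichever array (limma adjusted p up to 0.0876) and with the replicate number as a block.

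The proteases that clade B serpins can meet were read from 6 lists with 56 measured genes, of which 6 were called (5 higher and 1 lower), or 10.7% against 6.18% of all genes. The median difference was -0.01, as over all genes. The serine proteases of granules, the partners of Serpinb1a and Serpinb6a, were not called. Elane differed by -0.05, Prtn3 (proteinase 3) by -0.10 and Ctsg (cathepsin G) by -0.01 on the log2 scale. Their group means were bright, at 13.56 to 14.00. Whether such probe sets are saturated, which would understate a difference, was not tested. Prss57, which encodes a further serine protease of neutrophil granules, had the widest difference among these serine proteases at -0.33 (limma adjusted p = 0.0676). It was called in 7 of 16 settings and Prtn3 in 1 of 17, with limma adjusted p from 0.0137 to 0.222 and from 0.0187 to 0.555. Of the 9 genes of that list 1 was called: Ctsc, whose enzyme activates these proteases, rose 1.34-fold (95% confidence interval 1.23 to 1.47, limma adjusted p = 0.00310), with 11.12 ± 0.0906 on the arrays labelled shHLX and 10.70 ± 0.00612 on the shControl arrays (SD, n = 3 each).

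Of 13 lysosomal cathepsin genes, 4 rose and 1 fell, so 38.5% were called against 6.18% of all genes. These are bright genes, 12 with a mean above the 25th percentile and 8 above the median. When only genes above the median signal were tested, 2064 of 9969 were called, so the share over all genes is a low comparator. Without variance moderation 3 of the 13 were called, against 838 of all 19938 genes. Ctsf rose 1.53-fold (1.42 to 1.64) and Ctsl, which encodes the cysteine protease cathepsin L, 1.28-fold (1.17 to 1.39), while Ctsh fell by 0.50 on the log2 scale (-0.62 to -0.38). Ctsc, Ctsf, Ctsh and Ctsl were called without each of the 6 arrays in turn, and Ctsl missed the threshold in 1 of its 17 settings (limma adjusted p up to 0.0549). Ctse (1.19-fold, limma adjusted p = 0.0402) was called without shHLX 1 and lost without any other array, and Ctsd (1.13-fold, limma adjusted p = 0.0451) was lost without any 1 array (up to 0.133 and 0.142). Ctse was called in 9 and Ctsd in 8 of 17 settings.

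The other protease lists gave no call with limma. The 10 granzyme and perforin genes had 0 with an unadjusted p under 0.05, and Gzmb, the target of Serpinb9, averaged 5.57 ± 0.157 on the arrays labelled shHLX and 5.65 ± 0.113 on the shControl arrays (SD, n = 3 each). By mean signal, 3 of the 10 granzyme and perforin genes were above the 25th percentile of all genes and 1 above the median. Most of them may thus lie at background. Of 10 genes of plasminogen activation 2 had an unadjusted p under 0.05, among them Plau, the urokinase gene, at -0.16 (limma adjusted p = 0.146). Of 7 convertase genes 3 had one, among them Furin at 0.15 (limma adjusted p = 0.0936). Of 7 genes around caspase-1 2 had one, among them Casp1 at 0.25 (limma adjusted p = 0.0548). Over all genes, 19.4% had an unadjusted p under 0.05. A test without variance moderation called 0 genes in each of these 4 lists. Under some other settings Pcsk7 (5 of 17), Casp1 (4 of 17), Furin (3 of 17), Gsdme (2 of 16) and Pcsk4 (1 of 17) were called, with limma adjusted p down to 0.0117, 0.0079, 0.00773, 0.0410 and 0.0419.

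**Figure D4:**
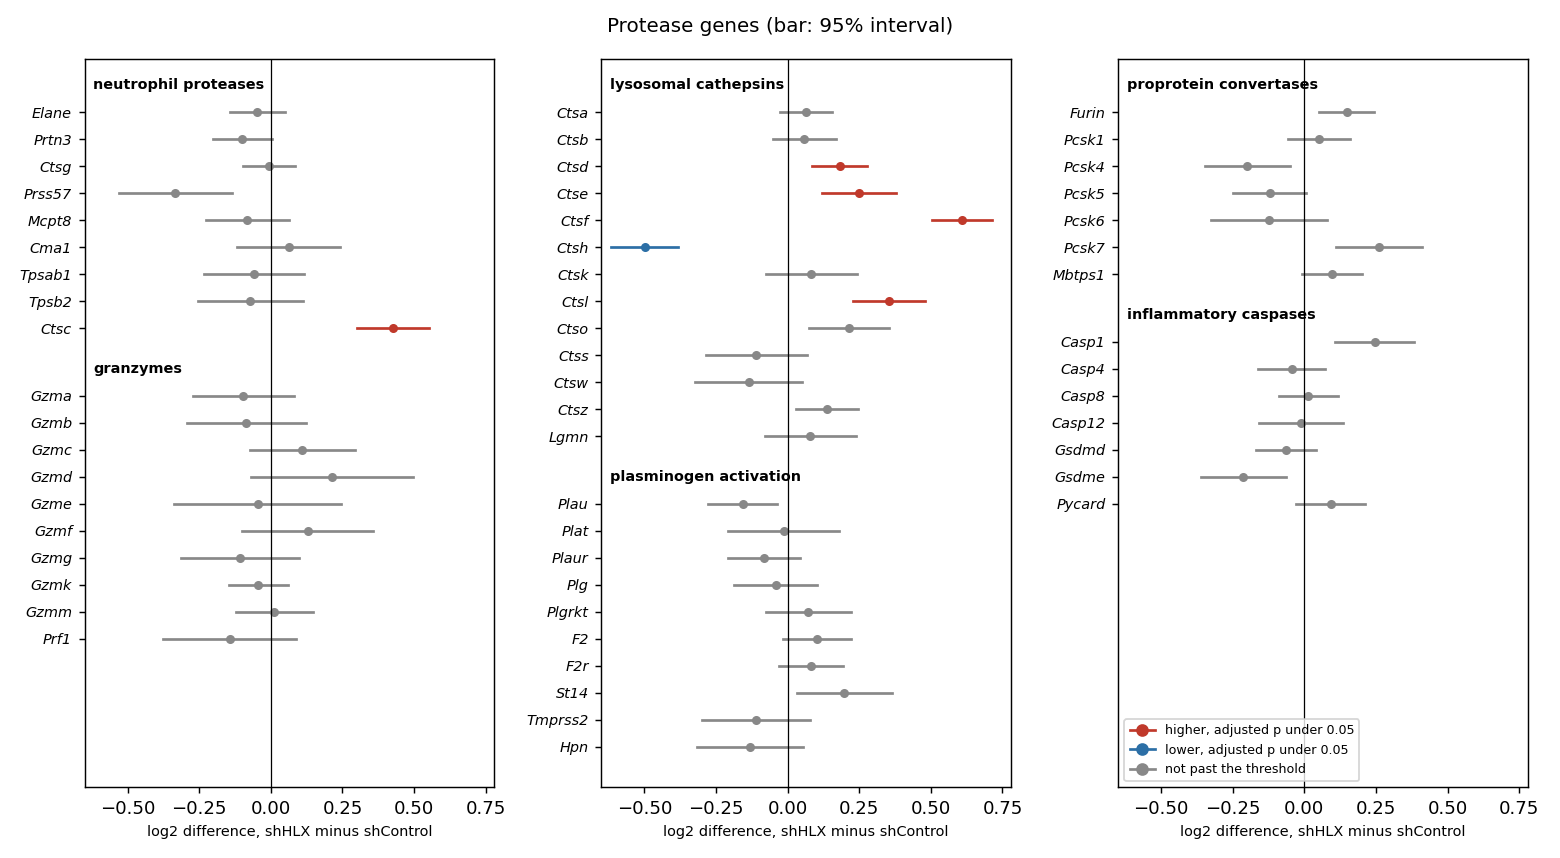
Log2 difference, shHLX minus shControl (horizontal axis), with its 95% confidence interval for the 56 measured protease genes and partners in 6 lists. Ctsc, Ctsf, Ctsl, Ctse and Ctsd are called higher and Ctsh lower, while Elane, Prtn3 and Ctsg lie between -0.10 and -0.01.

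The genes whose arrays ran most like those of Serpinb10 were sought by the root mean square difference of the values, each gene centred on its mean over the 6 arrays. The nearest were Ces1d (0.136), Ifitm1 (0.145), Rapgef3 (0.158), Rhou (0.173) and Raet1d (0.184). Their log2 differences were -1.41, -1.50, -1.27, -1.25 and -1.27. The nearest to Serpinb6a were Tgfbr3 (0.0134), Mpzl3 (0.0206), Qsox2 (0.0227), Nr2c1 (0.0231) and Gabbr1 (0.0256), with log2 differences of 0.28, 0.28, 0.30, 0.29 and 0.29. The ranking used the values of these same 6 arrays. Similar differences between the groups were therefore built into it and are no separate result.

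Markers of other cells that use these serpins were also read. Of 70 measured markers in 8 lists (cytotoxic lymphocytes, B cells, macrophages, mast cells and basophils, eosinophils, dendritic cells, keratinocytes, and erythroid cells and megakaryocytes), limma called Trp63, which encodes the p63 transcription factor of keratinocytes, or 1.43% against 6.18% of all genes, and a total of 9 had an unadjusted p under 0.05 (12.9% against 19.4%). These markers were mostly dim: 42 of the 70 had a mean above the 25th percentile of all genes and 7 above the median. The shares over all genes may thus be high comparators, and the low shares do not show that these markers were unaffected. Trp63 rose 2.47-fold (95% confidence interval 2.26 to 2.70), and the 9 other keratinocyte markers were not called. The summed linear signal of the 10 keratinocyte markers was 1340 to 1500 on the arrays labelled shHLX and 1109 to 1158 on the shControl arrays. Trp63 carried that gap: without it the 9 others summed to 795 to 899 on the arrays labelled shHLX and 884 to 932 on the shControl arrays, which overlap, and 8 of the 10 markers had a negative difference. The sum of the 10 mast cell and basophil markers was 1365 to 1417 on the arrays labelled shHLX and 1440 to 1547 on the shControl arrays. That of the 7 erythroid and megakaryocyte markers was 845 to 894 on the arrays labelled shHLX and 913 to 950 on the shControl arrays. No gene of either list was called. For the cytotoxic lymphocyte, B cell, macrophage, eosinophil and dendritic cell lists the sums overlapped between the groups. The summed signal of the 12 myeloid line markers was 48605 to 48982 on the arrays labelled shHLX and 51719 to 53250 on the shControl arrays. Elane, Prtn3 and Ctsg, which were not called, are the brightest of the 12 and weigh most in the level of this sum. The gap between the groups also holds falls of called genes. Mpo averaged 9.80 on the arrays labelled shHLX and 11.26 on the shControl arrays, and Kit 10.03 and 10.75. Among the 12, 8 had a negative and 4 a positive difference, and the part of each gene in the gap was not computed. In all, 8 of the 12 were not called, so the sum does not describe each marker. No marker can be placed at 0 on this scale. Whether the cells behind these sums have a part in the serpin differences was not tested.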

How the data were processed

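The deposited values are log2 signals per probe set, with a column for each array. RMA and Affymetrix Power Tools 1.178 are named per the submitters' processing notes. The genome build and the definitions of the probe sets are not given in the sources used. Of 35556 probe sets, 21789 had 1 symbol in the platform annotation, 1621 several and 12146 were not listed; probe sets without exactly 1 symbol entered no test. A gene took its probe set of highest mean, leaving 19938 genes, with no filter on dim signal. Groups came from the sample titles. The two-sided test was limma 3.58.1 (R 4.3.3, default eBayes, Benjamini-Hochberg over all genes, threshold 0.05), checked on simulated data. Whether replicates were separate transductions is not given, so the p-values cover the spread of these 6 samples only, and that spread may be technical; the number of arrays limits the precision.

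The members and lists were chosen with earlier results of these data known. Named genes were all members, up to 4 called genes per list by smallest p, protease partners fixed by name, cluster neighbours, and the 5 genes most like Serpinb6a and Serpinb10. Promoter sequences and gene order are RefSeq's (GRCm38.p6). Figures used matplotlib 3.10.9 in Python 3.11.15. Alternatives were other normalizations, signal filters, variance models, array weights, averaged probe sets, a replicate block, and 1 array left out at a time. Ranges of adjusted p over the alternatives or settings include the test without variance moderation, an ordinary t-test, except where limma alone is stated.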

Additional observations from a re-analysis of the deposited data

How the results depend on the processing

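Each value was recomputed under up to 16 alternatives. Serpinb10 kept its direction and its call in all 15 that could include it, and was not tested among genes above the median signal. Its highest adjusted p, 0.0263, came from the test without variance moderation. The filter that dropped the dimmest 25% kept Serpinb10 on its mean over the 6 arrays (6.76). Its mean on the arrays labelled shHLX (6.04) was below the 6.05 of Serpinb6b over the 6 arrays, which the filter dropped. Serpinb10 thus passed through its shControl arrays, and that setting gives no separate support. With 1 array left out, Serpinb6a ranged from 0.27 to 0.32 and Serpinb1a from 0.19 to 0.29. Serpinb1a was called after centring each array on its median (0.26, limma adjusted p = 0.0266), with array weights (0.26, 0.0204), after dropping the dimmest 25% (0.24, 0.0421) or 50% (0.24, 0.016) of genes, where fewer genes are tested, and with an intensity trend (0.24, 0.00216). Serpinb8 changed sign with array weights (-0.026) and ranged from -0.024 to 0.079 with 1 array left out. With 1 array left out, 1 to 3 members were called, namely 3 without shControl 2 and 1 without shHLX 1 or shControl 3. The called other clade B genes were then 0 or 1 (Serpinb9b, without shHLX 2) and the called serpins of other clades 0. The serpins of other clades also numbered 0 without variance moderation. Called protease genes numbered 11 above the median of signal and 13 with an intensity trend, against 6. Over all genes 1233 were called, 2064 above the median of signal, 2261 with an intensity trend and 698 to 901 with 1 array left out (766 without shHLX 1, 806 without shControl 2 and 698 without shControl 3). Except as stated, the cause of these changes was not tested. Dim genes may lie at background, where a change in RNA would be understated.

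Replicate numbers are shared between the groups, and deviations of same-numbered arrays from their group means correlated at -0.17, 0.129 and -0.152. No array labelled shHLX correlated best with the shControl array of its own number. Deviations within so small a group cancel out, which ties these correlations together, so they cannot decide whether the numbers pair the arrays. With a replicate block 800 genes, 2 members, 0 other clade B genes, 0 serpins of other clades and 5 protease genes were called, and the members' differences were as before.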
